A study of Mus musculus with 4 samples.

Results

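Chemokine and chemokine receptor genes were examined for binding of SMAD4 in mouse alveolar macrophages (AMs), which live in the airspaces of the lung. The members were all protein-coding genes of the curated RefSeq annotation of mm10 with a symbol made of Ccl, Cxcl, Ccr or Cxcr and a digit, together with Cx3cl1, Cx3cr1, Xcl1 and Xcr1. There were 57 of them among 20923 protein-coding genes: 24 CC ligands, 12 CXC ligands, 2 further ligands (Cx3cl1 and Xcl1) and 19 receptors. Members whose transcription start sites (TSSs) lay within 200 kb of each other were taken as 1 locus, which gave 28 loci on 11 chromosomes.

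All samples were AMs of wild-type C57BL/6J mice aged 9 wk according to the methods of the study, recovered by lavage of the lungs and sorted by flow cytometry in aliquots of 200000 cells. SMAD4 binding was profiled in them by HT-ChIPmentation, in which chromatin is immunoprecipitated and a transposase inserts the library adapters directly on the beads. There were 2 SMAD4 libraries and 2 input libraries, which received no antibody and enter the data only as the control level behind each peak. No source used here says how many mice gave an aliquot or whether the 2 libraries came from separate mice, so the spread between them may be technical. No second condition, no cells without SMAD4 and no expression data are part of these files, so binding can be described here and its effect on any gene cannot.

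Chemokines are small secreted proteins that guide leukocytes along concentration gradients, and they act through receptors coupled to G proteins. Many of the ligand genes, and several of the receptor genes, lie side by side in clusters that arose by duplication. SMAD4 joins the SMAD proteins that TGFβ receptors activate and enters the nucleus with them, and TGFβ is a signal on which AMs depend for their identity.

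The peaks of each SMAD4 library had been called separately, with 16369 peaks in replicate 1 and 19015 in replicate 2, and 10964 regions were formed where peaks of both lists overlapped by at least 1 bp. These are called shared regions, and a region was given to the gene with the TSS closest to its summit. Each peak carries a fold enrichment, the ratio of the fragments stacked at its summit to the control level, with 1 added to both. Where regions are ranked or one is called the strongest, this is by the smaller of its 2 folds. Sequencing totals were not analysed here. The genome-wide control level solved from the peak values was 2.08 fragments in replicate 1 and 1.22 in replicate 2, and the median peak had 17 and 14 fragments at its summit. Of 15 AM marker genes, 14 were nearest to a shared region, against 3 of 8 neutrophil, 0 of 6 T cell, 0 of 5 B cell, 2 of 9 epithelial and 1 of 5 endothelial markers. Among all protein-coding genes the share was 21.5%. The neutrophil markers, at 37.5%, lay above it, and the epithelial and endothelial markers lay close to it. Such counts describe binding and not expression, and the purity of the cells was not tested.

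The sequences under 7 of the regions described below are printed because they are the strongest regions at the leading genes, or lie in the promoters of ligands. Each is the 201 bases around the summit in mm10 (GRCm38), plus strand, and capitals mark matches to any of the 13 consensus strings named further on.
Ccr1 intron, chr9:123964841-123965041: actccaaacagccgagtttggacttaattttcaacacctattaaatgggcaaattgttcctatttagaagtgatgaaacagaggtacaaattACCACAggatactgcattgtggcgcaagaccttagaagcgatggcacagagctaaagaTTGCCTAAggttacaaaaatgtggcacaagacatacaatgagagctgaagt
Ccl6 promoter, chr11:83593484-83593684: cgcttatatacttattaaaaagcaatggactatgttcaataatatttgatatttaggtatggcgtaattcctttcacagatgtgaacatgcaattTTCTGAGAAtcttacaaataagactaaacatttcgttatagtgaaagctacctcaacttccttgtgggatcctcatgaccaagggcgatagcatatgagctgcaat
Ccl8 downstream, chr11:82139563-82139763: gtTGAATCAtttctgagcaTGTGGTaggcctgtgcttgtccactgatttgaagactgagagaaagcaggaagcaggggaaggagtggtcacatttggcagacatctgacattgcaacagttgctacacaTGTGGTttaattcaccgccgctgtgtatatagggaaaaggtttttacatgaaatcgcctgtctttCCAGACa
Cx3cr1 intron, chr9:120058698-120058898: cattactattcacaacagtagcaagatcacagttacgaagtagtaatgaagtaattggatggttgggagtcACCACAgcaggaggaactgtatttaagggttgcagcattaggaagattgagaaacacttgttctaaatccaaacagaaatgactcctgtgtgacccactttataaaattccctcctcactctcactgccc
Cxcl2 upstream, chr5:90897552-90897752: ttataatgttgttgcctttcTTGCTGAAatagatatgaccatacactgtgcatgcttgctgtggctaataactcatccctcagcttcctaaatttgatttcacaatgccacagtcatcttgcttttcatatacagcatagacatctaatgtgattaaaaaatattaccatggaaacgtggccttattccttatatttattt
Cxcl2 promoter, chr5:90903412-90903612: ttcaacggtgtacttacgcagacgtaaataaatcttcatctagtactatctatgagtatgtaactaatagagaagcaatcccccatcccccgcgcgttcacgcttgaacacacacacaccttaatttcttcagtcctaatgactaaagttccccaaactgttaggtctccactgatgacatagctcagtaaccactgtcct
Ccl3 promoter, chr11:83649442-83649642: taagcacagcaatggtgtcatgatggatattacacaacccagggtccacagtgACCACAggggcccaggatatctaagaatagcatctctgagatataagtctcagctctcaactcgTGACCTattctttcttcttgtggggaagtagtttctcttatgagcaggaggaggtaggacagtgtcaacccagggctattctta

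The Ccr1 intron and the Cxcl2 upstream region each held a CEBP string (TTGCNNAA), 53 bp after the summit in the first and 77 bp before it in the other. The Ccl6 promoter had a single string, that of the STAT factors, 1 bp from the summit, and the Cxcl2 promoter had none of the 13. RUNX strings (TGTGGT) were present under the Ccr1, Ccl8, Cx3cr1 and Ccl3 regions. A match of letters is a description of the sequence and does not show which factor was bound there.

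SMAD4 regions lay near many, but far from all, of the chemokine genes. A shared region was nearest to 23 of the 57 members (40.4%), where 21.5% of all protein-coding genes had one. Within 50 kb of the TSS, 40 members (70.2%) had a shared region, beside 37.5% of all protein-coding genes. In the peaks of replicate 1 alone, 27 members (47.4%) were nearest to a peak and 41 (71.9%) had one within 50 kb, with 27.2% and 44.3% for all protein-coding genes. In replicate 2 these numbers were 30 (52.6%) and 43 (75.4%), beside 31.2% and 51.4%. Both replicates thus placed the members above the protein-coding background on both measures. Members of a cluster share regions, so these shares do not come from 57 separate observations. Counted by locus, 11 of the 28 loci had a shared region nearest to a member and 17 had one within 50 kb. The genes were proposed with results of these data in view, there is 1 condition, and regions or genes of 1 library are not replicates, so no test was run of these counts and the background is given for comparison.

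The members also had more regions each than genes in general. At least 3 shared regions were nearest to 13 members (22.8%), beside 4.84% of all protein-coding genes, and at least 6 were nearest to 4 members (7.02%), beside 1.09%. In all, 73 shared regions were nearest to a member and 85 lay within 50 kb of one, of which 67 were both, which makes 91 distinct regions. Of the 85 regions, 57 lay within 50 kb of 2 or more members and the most crowded lay within 50 kb of 4.

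The stretch of genome whose nearest TSS belonged to a member held 23.2 shared regions per Mb (95% Poisson interval 18.2 to 29.2), whereas that of all protein-coding genes held 4.70 and the genome as a whole 4.28. Within 50 kb of the members there were 21.7 regions per Mb (17.4 to 26.9), beside 7.05 within 50 kb of all protein-coding TSSs. The 4 clusters of 5 or more members, with 24 genes, held 52 of the 73 regions nearest to a member and 48.5 regions per Mb within 50 kb (36.4 to 63.2). The other 24 loci, with 33 members, held 11.1 per Mb (7.53 to 15.7), which is closer to the 7.05 of protein-coding genes. They include the loci of chromosome 4, which held no regions and lie in duplicated sequence. Low mappability cannot be told apart from a lack of peaks there. The members are short genes, with a median length of 5124 bp against 16778 bp, while the median stretch for which they had the nearest TSS was 38.7 kb against 42.1 kb. The intervals here and below are exact, cover counting error only and treat regions as independent, which neighbouring regions of a cluster may not be.

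**Figure D1:**
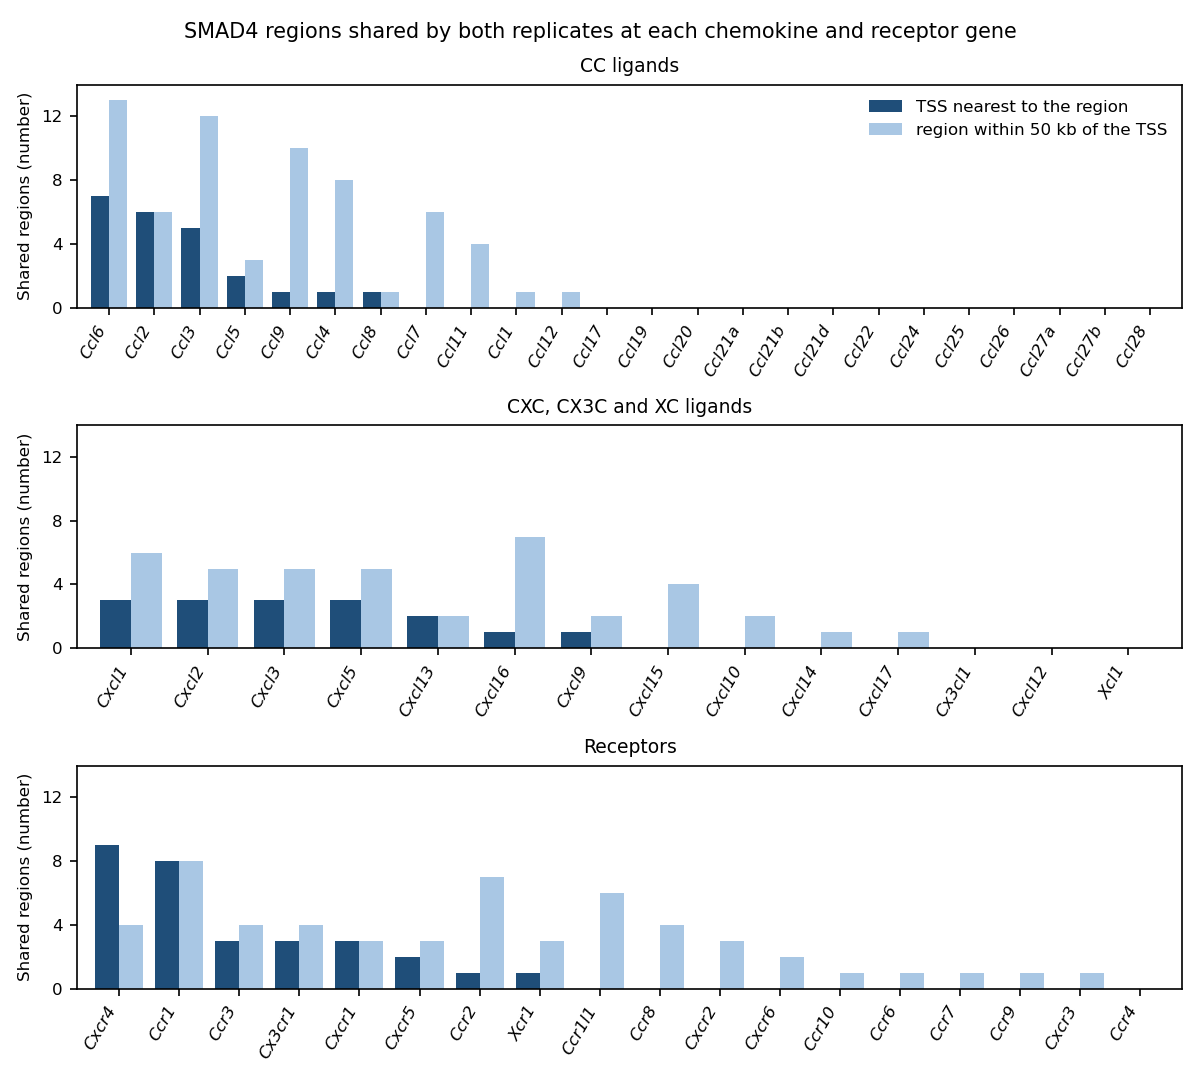
Number of shared SMAD4 regions (vertical axis) at 56 of the 57 genes, in 3 panels by role. Dark bars count regions for which the gene has the nearest TSS and light bars count regions within 50 kb of its TSS, so a region is counted once in the dark bars and may be counted for several neighbouring genes in the light bars. Ccl6, Ccl2, Cxcr4 and Ccr1 have the longest dark bars, at 7, 6, 9 and 8 regions, and the 17 genes at the right ends without bars have none of either kind.

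Among the CC ligands, 7 of 24 were nearest to a shared region (29.2%) and 11 had one within 50 kb (45.8%). Of the 3 main roles, these shares were closest to the 21.5% and 37.5% of all protein-coding genes. They count Ccl19, Ccl21a, Ccl21b, Ccl21d, Ccl27a and Ccl27b, in duplicated sequence of chromosome 4, as genes without regions. For those genes, lack of peaks and low mappability cannot be told apart. All 11 belong to the 2 ligand clusters of chromosome 11, and no CC ligand gene outside them had a shared region within 50 kb. The first cluster, Ccl5, Ccl9, Ccl6, Ccl3 and Ccl4, had 16 regions within 50 kb of its TSSs, or 68.9 per Mb, and all 16 were also nearest to a member.

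Ccl6, a myeloid CC chemokine that acts through Ccr1, was nearest to 7 regions. The strongest, chr11:83592925-83593988, lay in its promoter with the summit 497 bp upstream of the TSS, and had 33.1-fold enrichment in replicate 1 and 29.6-fold in replicate 2, from 101 and 97 fragments at the summit. This region ranked 89 of the 10964 shared regions. The other 6 lay between 7650 and 25344 bp upstream, inside introns of the overlapping transcript E230016K23Rik, with folds of 8.94 to 12.3 in replicate 1 and 7.71 to 14 in replicate 2. The promoter region was the only one of the 7 above 20-fold, and it was so in both replicates.

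Ccl3, which encodes MIP-1α, a ligand of Ccr1, was nearest to 5 regions. The strongest lay 8969 bp downstream at chr11:83640071-83640656 with 14.9-fold and 19.4-fold enrichment. Its promoter region, with the summit 164 bp upstream, was among the weaker shared regions, with 4.55-fold and 4.60-fold enrichment from 13 and 10 fragments. The neighbour Ccl4, which encodes MIP-1β, had 1 region in its intron, 1265 bp from the TSS at chr11:83663549-83664053, with 9.42-fold and 12.6-fold enrichment, and was nearest to 2 peaks of replicate 2 taken alone. Ccl9, another Ccr1 ligand, had 1 intronic region, chr11:83577079-83577450, with folds of 4.73 and 9.12. Ccl5, which encodes RANTES, had 2 regions, of which the stronger, chr11:83544077-83544547, lay 13875 bp upstream with folds of 7.47 and 5.87. The regions at Ccl9 and Ccl5 were thus well below the Ccl6 promoter in both replicates.

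The second cluster of chromosome 11, Ccl2, Ccl7, Ccl11, Ccl12, Ccl8 and Ccl1, had 7 regions within 50 kb of its TSSs, or 28.7 per Mb. Ccl2, the main monocyte attractant and ligand of Ccr2, was nearest to 6 of them, all of them upstream and intergenic, between 11667 and 30594 bp from the TSS. Their folds ran from 3.63 to 12.3 in replicate 1 and from 4.56 to 18 in replicate 2, and the strongest was chr11:82014995-82015565 with 12.3-fold and 16.7-fold enrichment. No shared region lay between these and the region nearest to Ccl8, which in the mouse encodes a ligand of Ccr8. That region, chr11:82139305-82140204, lay 24478 bp downstream of the Ccl8 TSS, between Ccl8 and Ccl1, and had 23.7-fold and 37.9-fold enrichment from 72 and 83 fragments. Its peaks overlapped, but their summits were 106 bp apart. Ccl7 and Ccl11, for ligands of Ccr2 and Ccr3, had 6 and 4 regions within 50 kb, all of them nearest to Ccl2. Ccl12 and Ccl1 each had within 50 kb only the region near Ccl8.

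Among the CXC ligands, 7 of 12 were nearest to a shared region (58.3%) and 11 had one within 50 kb (91.7%). The cluster of chromosome 5 that holds Cxcl5, Cxcl3, Cxcl15, Cxcl1 and Cxcl2, most of which encode attractants of neutrophils through Cxcr2, had 11 regions within 50 kb of its TSSs, or 45.0 per Mb. Cxcl2 was nearest to 3 regions. The strongest, chr5:90897066-90898233, lay 6247 bp upstream with 18.8-fold and 22.1-fold enrichment, and a second, chr5:90898526-90898887, lay 5185 bp upstream with 11.7-fold and 13.5-fold. The third lay in the Cxcl2 promoter, 387 bp upstream, with 9.25-fold and 10.5-fold enrichment. These were the only regions of the cluster above 9-fold in both replicates other than one at Cxcl1. Cxcl1 was nearest to 3 regions between 9386 and 37802 bp upstream, of which the strongest, chr5:90861761-90862498, had 10.4-fold and 19.4-fold enrichment. Cxcl3 had 3 regions and Cxcl5 had 3, with smaller folds of 3.66 to 7.71. Under a requirement that the 2 summits lie within 100 bp, all 3 of the Cxcl5 regions dropped out, and under 50% reciprocal overlap all 3 of the Cxcl3 regions did. Cxcl5 was nearest to 5 peaks of replicate 2 taken alone, 2 of them without a partner in replicate 1. Cxcl1 was nearest to 5 peaks of replicate 1, 1 of them without a partner. Cxcl15, a gene known from lung epithelium, had 4 of the cluster's regions within 50 kb and was nearest to none.

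Outside the cluster, Cxcl9, whose product attracts activated T cells through Cxcr3, had 1 region in an exon, chr5:92322472-92323166, with 12-fold and 19-fold enrichment. Cxcl10, another Cxcr3 ligand, was nearest to none and had 2 within 50 kb, that of Cxcl9 and one nearest to the Cxcl11 locus at chr5:92368239-92368861 with folds of 9.75 and 18. Cxcl11 has a noncoding RefSeq model in this reference and is therefore not a member. Cxcl13, the Cxcr5 ligand that guides B cells, was nearest to 2 regions, the stronger of them 32118 bp upstream with 10.4-fold and 10.8-fold enrichment. Cxcl16, a membrane-bound ligand of Cxcr6, was nearest to 1 region, 8055 bp upstream at chr11:70467807-70468144, with folds of 5.85 and 15.3. It had 7 regions within 50 kb, and the other 6 had the TSS of Arrb2, Mir7115, Med11 or Tm4sf5 nearest. Cxcl14 and Cxcl17 each had 1 region within 50 kb, nearest to another gene. Replicate 2 taken alone gave 2 peaks nearest to Cxcl9, 1 of them without a partner. Replicate 1 alone gave 4 nearest to Cxcl13, all of them within its 2 shared regions.

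Among the receptors, 9 of 19 were nearest to a shared region (47.4%) and 18 had one within 50 kb (94.7%), all but Ccr4. The cluster of 8 receptor genes on chromosome 9 had 20 regions within 50 kb of its TSSs, or 50.8 per Mb, and 17 regions nearest to a member.

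Ccr1, the receptor for Ccl3, Ccl5, Ccl6 and Ccl9, was nearest to 8 regions and carried the strongest of all member regions. It lay in the Ccr1 intron at chr9:123964539-123965541, 3751 bp from the TSS, with 39.3-fold enrichment in replicate 1 and 52.3-fold in replicate 2 from 120 and 115 fragments, and ranked 13 of 10964. A region at the Ccr1 TSS itself had 5.08-fold and 8.42-fold enrichment. The other 6 lay downstream, from 9714 to 40483 bp, and the strongest of these, chr9:123936586-123937237, had 13.3-fold and 20.1-fold. In both replicates the intronic region stood far above all others at Ccr1. Ccr1l1, its paralog, was nearest to no region and had 6 of the Ccr1 regions within 50 kb.

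Ccr3, the eotaxin receptor, was nearest to 3 regions, 15899 to 34388 bp downstream, of which the strongest was chr9:124056063-124056773 with 11.0-fold and 13.5-fold. Ccr2, the receptor that draws monocytes from blood, was nearest to 1 region, 33924 bp upstream at chr9:124068124-124068687, with folds of 8.77 and 18.5, and had 7 within 50 kb that it shared with neighbouring genes. Xcr1, known from cross-presenting dendritic cells, was nearest to 1 region, 7482 bp upstream with folds of 7.15 and 9.48. Replicate 2 taken alone gave 3 peaks nearest to Ccr2 and 2 nearest to Xcr1. Cxcr6 and Ccr9 were nearest to none, and had 2 regions and 1 region within 50 kb that were nearest to Fyco1 and Lztfl1.

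Cxcr4, the receptor for Cxcl12, was nearest to 9 regions, the largest number of any member, all of them intergenic. It also had the nearest TSS over 427.9 kb, where the median member had it over 38.7 kb, and the count is not adjusted for this. They spread over a wide stretch from 78944 bp downstream to 132229 bp upstream of the TSS, and only 4 lay within 50 kb. The strongest had 20.8-fold and 29.3-fold enrichment. The next, chr1:128642123-128642766, had 15.9-fold and 28.0-fold and lay 50127 bp upstream, just outside the 50 kb window. All 9 Cxcr4 regions were more enriched in replicate 2 than in replicate 1, as were 87.2% of all shared regions.

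Cx3cr1, the fractalkine receptor, was nearest to 3 regions within the gene. The strongest, chr9:120058460-120059249, lay in an intron 9498 bp from the TSS with 19.2-fold and 28.0-fold enrichment, and the other 2 had folds of 4.87 and 5.07 in replicate 1 and 10.8 and 11.7 in replicate 2. Its neighbour Ccr8 was nearest to none and had 4 within 50 kb. Cxcr1, a receptor of the neutrophil attractants, was nearest to 3 regions, the strongest 3939 bp downstream at chr1:74190327-74190987 with 13.6-fold and 19.4-fold, and all 3 also lay within 50 kb of its neighbour Cxcr2, which was nearest to none. Cxcr5 was nearest to 2 regions of 4.96-fold to 8.12-fold enrichment. Ccr6, Ccr7, Ccr10 and Cxcr3 each had 1 shared region within 50 kb, nearest to another gene.

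**Figure D2:**
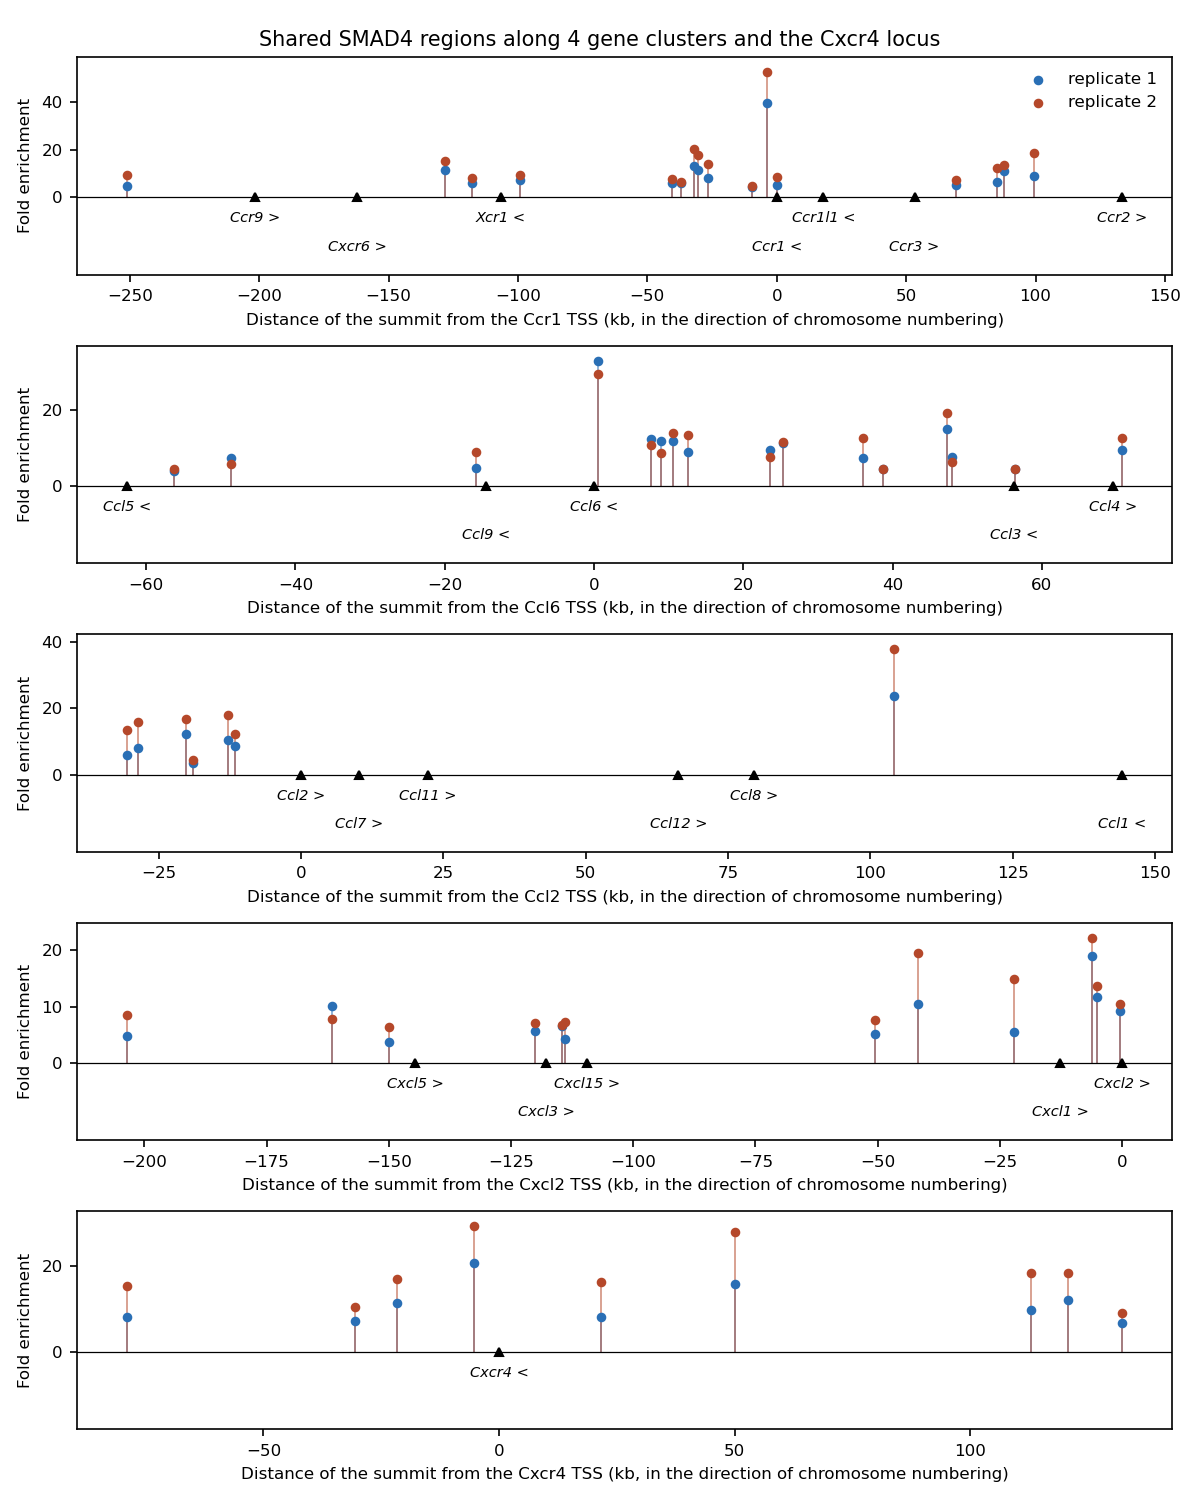
Fold enrichment (vertical axis, linear) of each shared SMAD4 region in replicate 1 (blue) and replicate 2 (red) against the distance of its summit in kb from the TSS of the gene named under each panel. Black triangles mark the TSSs of the member genes shown and > or < gives the direction of transcription. A few tall regions stand over many low ones: the Ccr1 intron (39.3-fold and 52.3-fold), the Ccl6 promoter (33.1-fold and 29.6-fold) and the region between Ccl8 and Ccl1 (23.7-fold and 37.9-fold), whereas the Cxcr4 regions are spread over more than 200 kb.

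The remaining 17 members had no shared region nearest and none within 50 kb. They were Ccl17 and Ccl22, for ligands of Ccr4, Ccl19, Ccl21a, Ccl21b and Ccl21d, for ligands of Ccr7, Ccl20, Ccl24, Ccl25, Ccl26, Ccl27a, Ccl27b, Ccl28, Cxcl12, Cx3cl1, Xcl1 and the receptor gene Ccr4. For 13 of the 17, no peak of either list lay within 50 kb. Ccl20 had 1 peak in replicate 1 (3.90-fold), and Ccl17 was nearest to 2 peaks in replicate 2 (5.86-fold and 6.77-fold), both within 50 kb of Cx3cl1 as well, while Ccl22 had 2 peaks of replicate 2 within 50 kb. Of the 17, 6 lie in a duplicated stretch of chromosome 4, and reads of low mapping quality had been removed before peaks were called. In the windows of 50 kb each side of Ccl27b, Ccl21b and Ccl21d, 100%, 99.9% and 99.0% of the 32-base words occurred more than once within 2 Mb, and in those of Ccl19, Ccl21a and Ccl27a 78.7%, 73.1% and 45.8% did. The same share was 17.6% at Ccl28 and at most 15.8% at the 40 members with a shared region within 50 kb. For these 6 ligand genes, the lack of peaks and low mappability cannot be told apart.

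Set side by side, the genes of a receptor and of its ligands often differed in their counts. Cxcr4 was nearest to 9 regions and the gene of its ligand, Cxcl12, to none, with no peak of either list within 50 kb of the Cxcl12 TSS. Cx3cr1 had 3 and Cx3cl1 had 0, and Xcr1 had 1 and Xcl1 had 0. Ccr3 had 3, and Ccl11, for one of its ligands, had 0. Other pairs went the other way. Cxcr2 had 0, and Cxcl1, Cxcl2, Cxcl3 and Cxcl5 had 3 each, but Cxcr1, also a receptor of neutrophil attractants, had 3. Cxcr3 had 0, and of its ligands Cxcl9 had 1 and Cxcl10 had 0. Cxcr6 had 0 and Cxcl16 had 1, and Ccr8 had 0 and Ccl8 had 1. Both sides carried regions for Ccr1, with 8, and its ligands Ccl6, Ccl3, Ccl5 and Ccl9, with 7, 5, 2 and 1. The same held for Ccr2, with 1 shared region (3 peaks in replicate 2 alone), and Ccl2, with 6, but Ccl7, for another Ccr2 ligand, had 0. Cxcr5 and Cxcl13 had 2 each. Neither Ccr4 nor Ccl17 and Ccl22 had any shared region within 50 kb. Not every ligand of these receptors is listed here. These counts are not adjusted for the stretch over which a gene has the nearest TSS. That stretch was 427.9 kb at Cxcr4, 389.2 kb at Cxcl12 and 15.4 kb at Xcr1.

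The replicates ranked the member regions alike. Over the 73 regions nearest to a member, the folds of the 2 replicates had a Spearman's rho of 0.808 and a Pearson's r of 0.896, and over all 10964 shared regions 0.782 and 0.905. These are descriptions across regions of the same 2 libraries, and a region had to be called in both to be counted. The median fold was 8.12 in replicate 1 and 11.7 in replicate 2 at the member regions, beside 6.82 and 9.48 at all shared regions. The fold was larger in replicate 2 at 64 of the 73 regions (87.7%), beside 87.2% of all shared regions, and the Ccl6 promoter was among the 9 exceptions. Member regions were found in the top 10% of all shared regions by smaller fold at about the general rate, with 9 regions (12.3%) beside 10.4%.

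Of the 90 replicate 1 peaks nearest to a member, 81 (90%, 95% interval 81.9 to 95.3) overlapped a replicate 2 peak, beside 69.4% of all replicate 1 peaks. Of the 101 replicate 2 peaks, 75 (74.3%, 64.6 to 82.4) overlapped a replicate 1 peak, beside 59.2%. The mean over both lists was 95.5 ± 7.78 peaks (SD, n = 2) and 82.1% ± 11.1 with a partner, beside 64.3% ± 7.22 for all peaks. Peaks near members that had no partner were weak, with a median fold of 4.91 in replicate 1 and 5.41 in replicate 2, where those with a partner had 7.47 and 11.7.

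**Figure D3:**
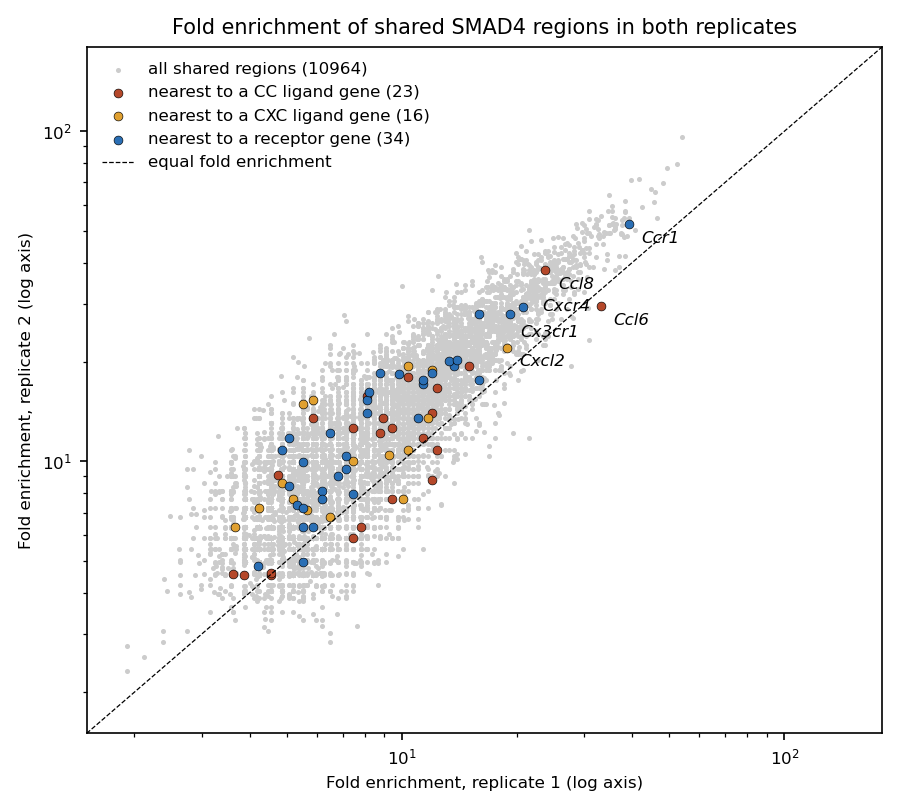
Fold enrichment of shared regions in replicate 1 (horizontal) and replicate 2 (vertical), both on log axes. Grey points are all 10964 shared regions, coloured points are the 73 regions nearest to a CC ligand, CXC ligand or receptor gene, and the dashed line marks equal folds. The coloured points follow the grey cloud, and 64 of 73 lie above the line, with Ccl6 at 33.1-fold and 29.6-fold below it.

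SMAD4 regions near chemokine genes were mostly distal. Of the 73 regions nearest to a member, 54 (74.0%, 62.4 to 83.5) were intergenic, beside 40.5% of all shared regions, and 12 (16.4%, 8.79 to 27.0) were intronic, beside 49.3%. The promoter, taken from 1 kb upstream to 100 bp downstream of a TSS, held 4 (5.48%), those of Ccl6, Cxcl2, Ccr1 and Ccl3, beside 6.42% of all shared regions. Exons held 3, and none lay at a transcription termination site, which allows a share of up to 4.93%. Member genes are short, as given above, and how far this sets the low intronic share was not tested. The summit lay within 1 kb of the TSS in 4 regions, 1 to 10 kb away in 25, 10 to 50 kb away in 38 and beyond 50 kb in 6, and the median distance was 15884 bp, beside 18040.5 bp for all shared regions. Regions nearest to ligand genes lay upstream of the TSS in 71.8% of 39 and those nearest to receptor genes in 32.4% of 34, beside 43.8% of all shared regions. Ccl2, Ccl6, Cxcl1 and Cxcl2 had all of their regions upstream, and Ccr1 had 7 of 8 downstream. Not all genes followed this split. Ccl3 had all but its promoter region downstream, and the Cxcr4 regions lay on both sides of the TSS.

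Under the member regions CEBP and RUNX were the most frequent of the 13 strings, as they were under all shared regions. The CEBP string occurred within 100 bp of the summit in 32 of 73 regions (43.8%, 32.2 to 55.9), beside 40.9% of all shared regions, and in 6.85% of flank windows 1 kb away, beside 8.77%. RUNX (TGTGGT) occurred in 37.0% (26.0 to 49.1), beside 26.4% of all shared regions, with 9.59% and 15.3% in the flanks. The string of PU.1 (GAGGAAGT), a factor that macrophages in general need, occurred in 12.3% beside 8.0%, and that of AP-1 (TGANTCA) in 16.4% beside 12.3%. ELF5-type ETS (CAGGAAGT) was found in 2 regions (2.74%), beside 5.62%. In the flanks of member and all shared regions, PU.1 occurred in 0% and 1.42% and AP-1 in 2.74% and 6.41%. ELF5-type ETS occurred there in 0% and 1.54%. The strings differ in their number of fixed letters, so the order of their shares is not an order of enrichment over the flanks.

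The SMAD string (GTCTGG) occurred in 13.7% of member regions and 11.2% of all shared regions, with 6.85% and 10.02% in the flanks, and the SMAD palindrome (GTCTAGAC) in none, beside 0.465%. STAT (TTCNNNGAA) occurred in 13.7% beside 8.06%, with 12.3% and 6.54% in the flanks, so it was almost as frequent 1 kb from the member summits. IRF (GAAANNGAA) occurred in 12.3% beside 8.66%, with 1.37% and 7.34% in the flanks. The nuclear receptor string AGGTCA was found in 19.2% beside 15.4%, RBPJ (GTGGGAA) in 4.11% beside 4.14%, and NF-kB (GGANTTTCC), the factor known for inducing many chemokines in inflammation, in 1 region (1.37%) beside 1.09%. The E-box CACGTG was absent from all 73, which allows a share of up to 4.93%, beside 3.65%. For all 13 strings the 95% interval of the member regions held the share of all shared regions, so no difference was detectable with 73 regions. Strings were searched on both strands, and the PU.1 and ETS strings share 7 of their 8 letters. At least 1 string was present in 87.7% of the member regions and 82.4% of all shared regions, and the mean GC content was 43.5% and 43.7%.

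**Figure D4:**
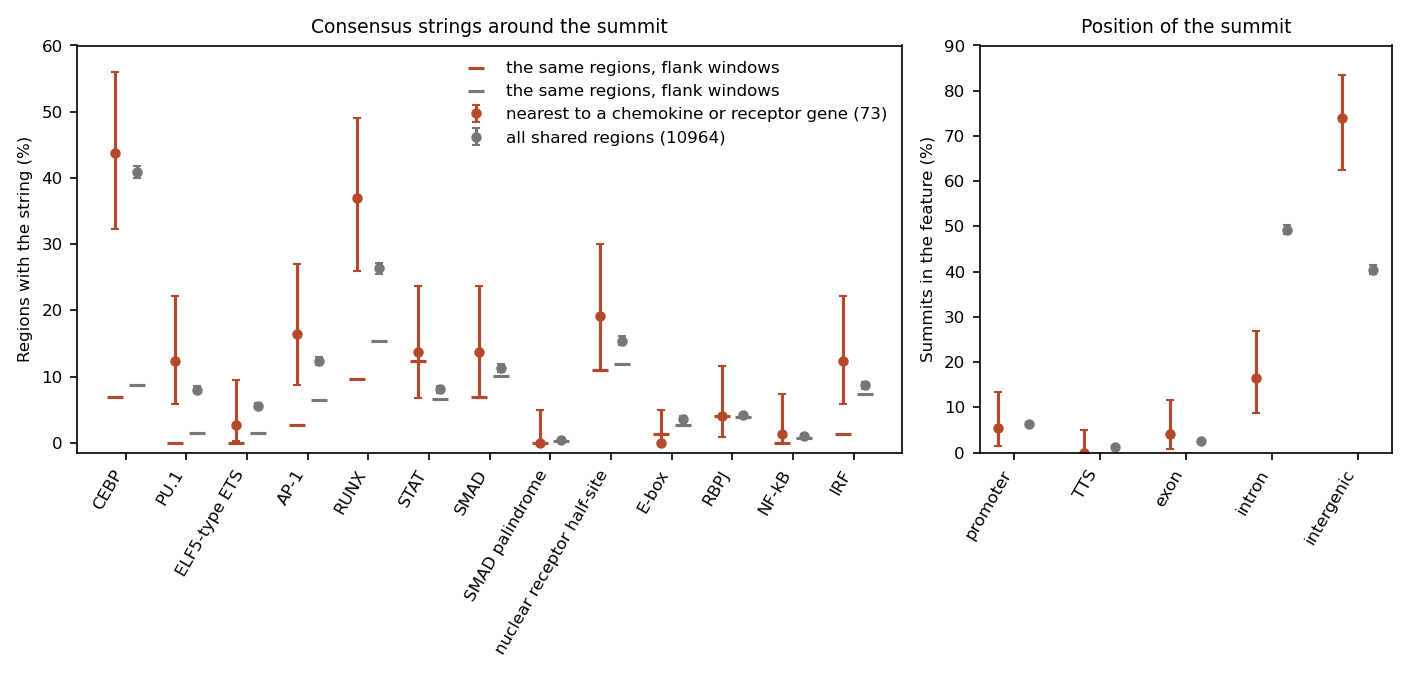
Left, share of regions (%) with each of the 13 consensus strings within 100 bp of the summit, for the 73 regions nearest to a chemokine or receptor gene (red) and all 10964 shared regions (grey), with dashes for flank windows 1 kb away. Right, share of summits (%) in each genomic feature. Error bars are exact 95% binomial intervals. The red interval holds the grey share for all 13 strings, and the shares stand apart for introns (16.4% and 49.3%) and intergenic sequence (74.0% and 40.5%).

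Other families of secreted signals and their receptors gave the following counts under the same rule. Among 83 interleukin and interleukin receptor genes, 27 (32.5%) were nearest to a shared region and 41 (49.4%) had one within 50 kb. Among 35 genes of the TNF superfamily, 13 (37.1%) and 26 (74.3%) did. The members, at 40.4% and 70.2%, thus lay above the interleukin genes on both measures and below the TNF superfamily on the second, and these differences were not tested.

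Genes that work with the chemokines but have other names were counted in the same way, and their shares stand beside 21.5% and 37.5% for all protein-coding genes. Of 16 receptors for other chemoattractants, 10 were nearest to a shared region (62.5%) and 14 had one within 50 kb (87.5%). Of these, Fpr1, a receptor for formylated peptides, C5ar2, a receptor for complement C5a, and Ptafr, the receptor for platelet-activating factor, were each nearest to 4. Their strongest regions had folds of 18.2 and 24.4 at Fpr1, 12.7 and 15.8 at Ptafr, and 9.10 and 11.3 at C5ar2. Of 48 genes of the signalling chain behind the receptors, 28 were nearest to a shared region (58.3%) and 36 had one within 50 kb (75%). By nearest TSS they were led by Plcb1, a phospholipase C, with 8 regions, Elmo1, which activates Rac with Dock proteins, with 7, and Rgs2, a regulator of G protein signalling, with 6. Within 50 kb, Plcb1, Elmo1 and Rgs2 had 4, 2 and 2, fewer than the 6 each of Lyn and Arrb2. Of 12 further chemokine system genes outside the naming rule, 4 were nearest to a shared region (33.3%) and 8 had one within 50 kb (66.7%). They included the atypical receptor gene Ccrl2 with 3 regions and folds of up to 8.12 and 13.1, and Ackr3 and Ackr4 with 1 each. The platelet chemokine genes Pf4 and Ppbp were nearest to none and had 5 each within 50 kb, in the Cxcl5 cluster.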

How the data were processed

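The authors trimmed the reads, aligned them to mm10 with Bowtie2, removed duplicates and reads of low mapping quality, and called peaks in each SMAD4 library with MACS3 against input, keeping peaks at a q-value of at most 0.05. Each deposited peak has a fold ratio over the control level, a −log10 p-value and a −log10 q-value at the summit and a score, and the authors' score was not used. Replicates were not pooled by the authors, and replicate numbers were given here in accession order.

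Coordinates are 1-based in mm10 (GRCm38, RefSeq). The nearest gene was taken among 26089 genes with curated transcripts (45657 in all), and distances were measured from the summit, or, for shared regions, from the midpoint of the 2 summits. Sequences were read from the RefSeq genome. Fragments at a summit were solved from the fold and p-value, which worked for all 16369 and 19015 peaks. Scripts were tested on simulated data. The Python version was 3.11.15, with numpy 2.4.6, pandas 2.3.3 and scipy 1.17.1. Members and lists were chosen with earlier results of these data known. All members with a shared region nearest were described by role, those with one only within 50 kb by locus, and those with neither were named once. The alternatives were other overlap rules, a minimum fold of 5, stricter q limits, protein-coding TSSs only, the summit of the stronger peak, other windows and each replicate alone. The search for repeated 32-base words was added after the values were seen. The values of 1 member gene and the sequence of 1 region are not reported here, and both are counted in the totals.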

Additional observations from a re-analysis of the deposited data

How the results depend on the processing

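Of 76 summary values recomputed under the alternatives, 66 stayed within limits, which were 1.5 times the count or the 95% interval of a density or share. With 50% reciprocal overlap there were 16.9 regions per Mb within 50 kb of members, and with summits within 100 bp 16.4, and 16.5 per Mb where a member had the nearest TSS. Each replicate's peaks taken alone gave 28.6 and 32.1 per Mb nearest to members, and 27.6 and 31.95 within 50 kb. A window of 10 kb left 19 members and 31 regions, at 28.0 per Mb. No density of all protein-coding genes was computed for this window, for the other overlap rules or for single replicates. These densities therefore cannot be set against the 4.70 and 7.05 per Mb given above for shared regions. The CEBP share was 31.5% within 50 bp of the summit, where that of all shared regions was 28.0%. Of the 23 members nearest to a shared region, 22 kept one at a minimum fold of 5 in both replicates (Ccl9 did not), 22 under 50% reciprocal overlap (Cxcl3 did not) and 19 with summits within 100 bp (Ccl5, Ccl8, Cxcl5 and Xcr1 did not). In that order, these were 38.6%, 38.6% and 33.3% of the members. The shares of all protein-coding genes were 17.9%, 18.8% and 18.7%, against 21.5% before. Of 207 counts of single genes, 185 stayed within 1.5 times. The stricter q limits, protein-coding TSSs only and the summit of the stronger peak changed none of these counts. All moved counts came from the overlap rules, the minimum fold or single replicates. No paired analysis was possible because the labels give no replicate numbers and the results come from no test. With a median of 24 and 25 fragments at the member summits and 2 libraries, small differences between members cannot be resolved, and a region absent from 1 list may have been missed there.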

Other observations

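Some members were nearest to peaks that had no partner in the other replicate. In replicate 2, Cxcl17 was nearest to a peak 24002 bp upstream with 9.48-fold enrichment, Cxcr2 to 2 peaks, one 2713 bp upstream with 8.57-fold and one 1596 bp downstream with 6.32-fold, and Cxcr5 to a peak of 9.02-fold. Cxcl10 was nearest to 2 peaks of replicate 2, 3513 and 5009 bp upstream, with folds of 4.60 and 4.51. In replicate 1, Ccl7, Ccl11 and Ccl1 were each nearest to a peak without a partner, with folds of 5.07, 5.20 and 4.22, and Ccl1 was also nearest to such a peak of replicate 2, elsewhere, with 4.76-fold. None of these genes except Cxcr5 was nearest to a shared region.

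Several members owe their place inside or outside the 50 kb window to a short distance. Ccr9 was counted through a region 49569 bp upstream of its TSS, which lay at the promoter of Lztfl1 with 4.87-fold and 9.48-fold enrichment. Cxcl14 had a stronger region outside the window, 56911 bp upstream with 15.5-fold and 26.2-fold, and Ccr6 had one 54573 bp downstream with 11.4-fold and 17.1-fold.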
